A study of Rattus norvegicus with 9 samples.

Results

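The 75 genes described here are named for proteins of the mitochondrial ribosome, and they were taken from the table by name, as the genes whose symbol starts with Mrpl or Mrps followed by a digit. They were 75 of the 20645 genes listed for INS-1E cells, a rat insulinoma line used as a model of the pancreatic beta cell, and 45 of them carry an Mrpl name (large subunit) and 30 an Mrps name (small subunit). The cells were given fatty acid-free bovine serum albumin alone (BSA group, the control), 0.5 mM palmitic acid (PA group), or 0.5 mM palmitic acid together with 50 µM cyanidin-3-O-glucoside, a plant anthocyanin (PA + C3G group), all for 24 h and with 3 libraries in each group. The doses come from the methods of the study, as do the albumin of the control and the palmitic acid given with C3G. The labels name only a control, palmitic acid and cyanidin-3-O-glucoside. All groups are the same tumor-derived cell line, grown in culture. The methods of the study speak of replicate samples in each group and, for its experiments in general, of biological replicates. The labels do not say how the cultures behind the libraries were kept apart, so the p-values given below measure the spread between these libraries, part of which may be technical.

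Mitochondria keep their own ribosome, a large and a small subunit built of ribosomal RNA from the mitochondrial genome and of proteins that are all encoded in the nucleus, translated in the cytosol and imported. It translates the small set of mRNAs of mitochondrial DNA, which code for core subunits of the respiratory chain and of ATP synthase, and beta cells rely on that chain because the ATP it makes couples glucose to insulin secretion. Some of its proteins descend from those of bacterial ribosomes and others were added in the mitochondrial lineage. A gene name does not always give the place of the protein: MRPS30 and MRPS18A sit in the large subunit, and MRPS36 is better known as a component of the 2-oxoglutarate dehydrogenase complex.

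Before the values, the start regions of several of these genes are shown, because NRF1, GABP and YY1, known regulators of nuclear genes for mitochondria, bind short motifs there. A window from 250 bases before to 50 bases after the RefSeq start (build GRCr8) was found for 59 of the 75 genes. The YY1 motif AAGATGGC, searched on both strands, stood in 15 of these 59 windows (25.4%), in 6.06% of the windows of the genes tested for expression and in 3.17% of all 33469 windows. In 13 of the 15 genes it lay within 50 bases of the start, and in 11 of the 15 it lay after the start, inside the transcribed part. Examples are given for genes that the results below turn on, 30 bases each on the strand of the gene, with the motif in capitals.
Mrpl49, YY1 motif, chr1:212779293-212779322, minus strand: ttggaggagcaAAGATGGCagcaaatgtat
Mrps30, YY1 motif, chr2:52195868-52195897, minus strand: cgcggaggacaAAGATGGCggctgccaggt
Mrps18a, YY1 motif, chr9:22367362-22367391, minus strand: ggtgtgttcccAAGATGGCggccctcaggg
Mrps27, YY1 motif, chr2:32474222-32474251, plus strand: tggtacgctccAAGATGGCggcccccatgg
Mrpl48, YY1 motif, chr1:164351535-164351564, minus strand: actcggtaacaAAGATGGCaactaatactg
Mrpl36, YY1 motif, chr1:31795119-31795148, minus strand: cgtgaccctacGCCATCTTtctttctggcg
With the start counted as base 1, the motif began at base 17 in Mrpl49, 19 in Mrps30, 1 in Mrps18a and 30 in Mrps27. It began 177 bases before the start in Mrpl48 and 16 bases before it in Mrpl36, where it was read on the opposite strand. The ETS motif CCGGAAGT, the type bound by GABP, stood in 8 of the 59 windows (13.6%) against 8.79% of those of tested genes and 3.81% of all windows. The NRF1 core GCATGCGC stood in 5 windows (8.47%, against 5.49% and 2.47%), and its matches on both strands can overlap because the longer site reads alike on either strand. The E-box CACGTG stood in 5 windows (8.47%, against 9.59% and 6.42%). Matches of different motifs overlapped in 0 genes. An ETS site is shown for Mrps26, which fell with PA, and for Mrps27, which rose, and an NRF1 site for Mrpl17, one of the most abundant of the mRNAs, again with the motif in capitals.
Mrps26, ETS (GABP) motif, chr3:138222329-138222358, plus strand: gctcctcgaccACTTCCGGacagggcgcag
Mrps27, ETS (GABP) motif, chr2:32474146-32474175, plus strand: gtggtccgtccACTTCCGGcggaggcgggc
Mrpl17, NRF1 core motif, chr1:169575698-169575727, minus strand: gccgagctactGCGCATGCgtcctctggaa
A match is only a run of letters, and no binding was measured. Of the 15 genes with the YY1 motif, 3 rose, 3 fell and 9 were not called in the PA group compared to the BSA group, while 25.8% of all genes tested rose and 25.2% fell.

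The libraries held between 45559993 and 66730721 estimated counts, of which the 75 genes took between 0.236% and 0.259%. Their values are given below as FPKM, fragment numbers corrected for how long a gene is and how many fragments its library yielded, which can be compared between genes. Differences were tested by edgeR's quasi-likelihood test on the counts, over the 12958 genes with a mean of at least 1 FPKM, and a gene was called where the p adjusted over all these genes by the Benjamini-Hochberg method was under 0.05. 74 of the 75 genes passed that filter. The other, Mrps21l, lay between 0 and 0.545 FPKM and was not tested. All 13 beta-cell markers were expressed, 6 stromal, endothelial and immune markers stayed below 1 FPKM in every library, as did 5 of 6 exocrine and duct markers. The other, Sox9, lay between 2.52 and 2.72 FPKM for BSA, 4.52 and 5.86 for PA and 3.05 and 3.87 for PA + C3G, and it was called higher with PA (log2 fold change 0.94) and lower with C3G compared to PA (−0.47). The sum of the beta-cell markers lay between 49514 and 50251 FPKM for BSA, 22643 and 23184 for PA, and 47147 and 52826 for PA + C3G. Single markers ran from 6.16 to 36222 FPKM, so the sum mostly reflects the highest of them. Of the 13, 10 were called lower and 0 higher with PA, against 25.2% and 25.8% of all genes. With C3G compared to PA, 12 were higher and 0 lower, against 11.1% and 10.2%. Gcg, the glucagon gene of alpha cells, lay between 8.28 and 31.2 FPKM for BSA, 1.35 and 6.02 for PA and 4.17 and 22.5 for PA + C3G, and the part of these shifts in the results below was not tested. In bulk RNA, fewer cells of a type and less RNA per cell cannot be told apart. Among the 75 genes, 9 overlap another gene of the table, 8 of them on opposite strands only, Mrpl43, Mrpl49, Mrpl57 and Mrps18a included.

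The genes of the mitochondrial ribosome were expressed mostly at moderate levels. Mean levels over the 9 libraries ran from 7.54 to 101 FPKM, a 13.4-fold range with a median of 28.0 FPKM, and 58 of the 74 genes lay between 10 and 50 FPKM. The median over all genes tested was 12.9 FPKM. Mrpl33, a small protein of the large subunit with a bacterial counterpart, was highest, with 96.9, 93.7 and 118 FPKM in BSA libraries, 98.3, 93.3 and 94.8 in PA libraries and 107, 97.7 and 108 in PA + C3G libraries. Mrpl43, a protein found only in mitochondrial ribosomes, followed with 83.2, 88.9 and 83.9 FPKM in BSA libraries, 82.2, 82.3 and 81.1 in PA libraries and 79.5, 77.0 and 79.5 in PA + C3G libraries. Mrpl17 read 78.2, 79.9 and 77.0 FPKM in BSA libraries, 86.2, 84.5 and 79.3 in PA libraries and 87.1, 77.7 and 83.1 in PA + C3G libraries. The ranges of Mrpl43 and Mrpl17 overlapped across the 9 libraries, whereas every library put Mrpl33 above both. At the other end, Mrps22, Mrpl57 and Mrps36 had the lowest means, and each stayed below 12 FPKM in all libraries. Replicates were close, with a median coefficient of variation of 5.73% for BSA, 6.25% for PA and 5.53% for PA + C3G, against 6.33%, 6.14% and 6.48% over all genes. Mrps24, named after its values were seen, was the most variable, with 31.9% in the BSA group and 31.3% in the PA + C3G group. It read 17.7, 34.0 and 32.2 FPKM in BSA libraries, 21.0, 18.4 and 35.3 in PA libraries and 37.4, 19.5 and 33.9 in PA + C3G libraries, so that every group held low and high libraries, and a difference between groups was not detectable for it (adjusted p = 0.741 by edgeR for PA vs BSA).

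The summed level of the mitochondrial ribosome mRNAs is given first as FPKM. Summed over the 75 genes, the level was 2340 ± 42.9 FPKM (SD, n = 3) for BSA, 2238 ± 66.1 for PA and 2220 ± 59.1 for PA + C3G, which is 0.437%, 0.434% and 0.415% of all FPKM. In this sum PA and BSA libraries overlapped, whereas all PA + C3G libraries lay below all BSA libraries. In CPM, the counts scaled by edgeR's TMM method, the sums were 2498 ± 39.2, 2470 ± 53.9 and 2478 ± 68.7, and all groups overlapped. Genes with Mrpl names summed to 1513 ± 27.0, 1454 ± 40.8 and 1450 ± 27.7 FPKM, and those with Mrps names to 826 ± 18.2, 784 ± 33.9 and 770 ± 31.9 FPKM.

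To find out which of the genes responded to palmitic acid, the PA group was compared with the BSA group. 28 of the 74 genes were called (37.8%), 9 of them higher and 19 lower, whereas 51% of all genes tested were called, 25.8% higher and 25.2% lower. The share of genes that rose was therefore 9 of 74 against 25.8% of all genes, and the share that fell, 19 of 74, was close to the 25.2% of all genes. The changes were small. The log2 fold changes ran from −0.69 to 0.74, with a median of −0.07 against 0.00 over all genes, and 3 genes (4.05%) moved by more than 0.5 on the log2 scale, against 25.3% of all genes. All genes tested include many of lower level (median 12.9 FPKM, against 28.0 for these genes). No comparison with genes of like level was made. The DEG rule of the study is a fold change above 2 with p under 0.05, and its methods do not say whether that p was adjusted. Read here as an unadjusted p, the rule was met in edgeR by 0 of the 74 genes and by 7.56% of all genes, although 33 of the 74 had an unadjusted p under 0.05. With DESeq2 and with limma the DEG rule was met by 0 of 74 genes in each of the 3 comparisons as well. Among genes with Mrpl names 6 rose and 13 fell of 45, and among those with Mrps names 3 rose and 6 fell of 29. Of the 42 genes whose proteins have a bacterial counterpart, 4 rose and 10 fell, and of the 32 found only in mitochondria, 5 rose and 9 fell.

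**Figure D1:**
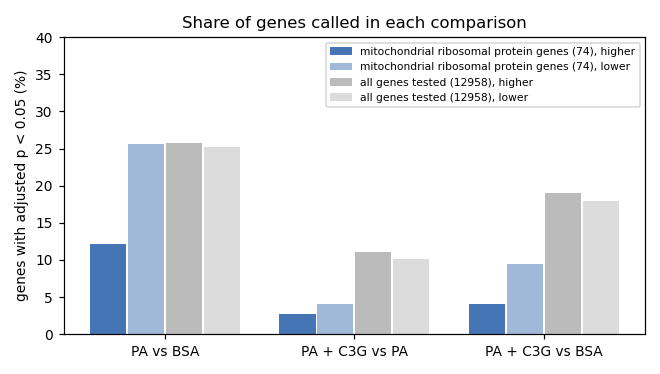
The bars give the percentage of genes with an adjusted p under 0.05 (edgeR) in each comparison, for the 74 mitochondrial ribosomal protein genes (blue) and all 12958 genes tested (grey), with genes that were higher in dark and lower in light shades. In each comparison the blue bar lies below the grey bar of its direction, except for genes lower in the PA group, where 19 of 74 genes and 25.2% of all genes are nearly level.

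**Figure D2:**
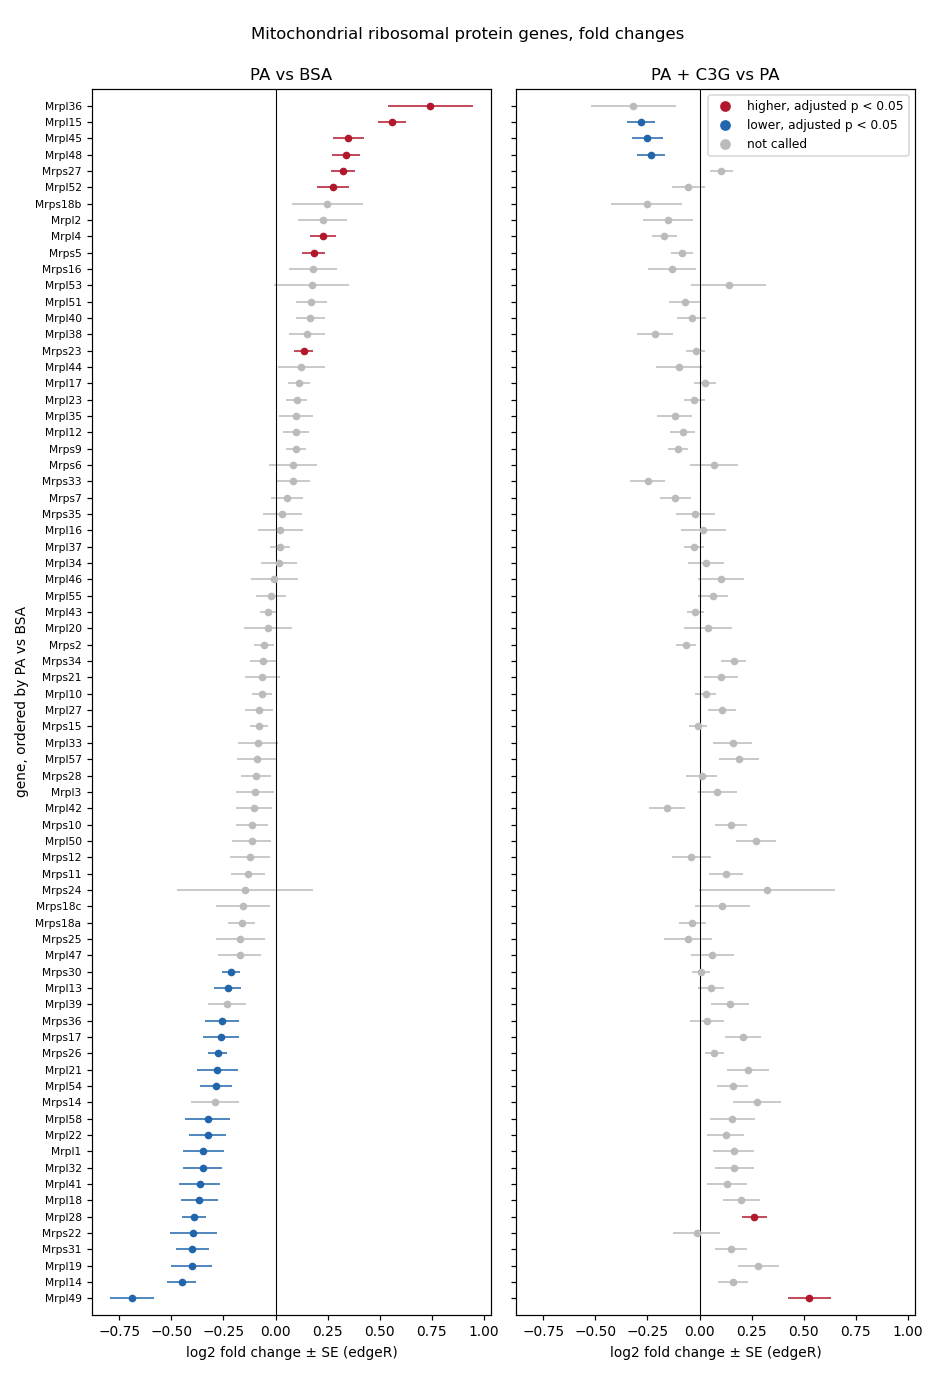
Each point is the log2 fold change of a mitochondrial ribosomal protein gene with its standard error, for PA vs BSA on the left and PA + C3G vs PA on the right, in the order of the left panel and colored by direction where the adjusted p was under 0.05. On the left 28 genes are colored, from Mrpl49 at −0.69 to Mrpl36 at 0.74, and on the right 5 are.

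The largest fall belonged to Mrpl49, which encodes a protein of the large subunit with no bacterial counterpart (chromosome 1, 221417336 to 221420115, minus strand, in the authors' coordinates). Mrpl49 read 41.1, 42.0 and 45.3 FPKM in BSA libraries, 21.998, 27.9 and 28.4 in PA libraries and 36.2, 37.6 and 36.2 in PA + C3G libraries. All PA libraries lay below all BSA libraries, and the log2 fold change was −0.69 ± 0.10 (SE, adjusted p = 0.000382 by edgeR). Genes named for the size of their change were taken only from called genes whose groups did not overlap. Their separation, here and below, is therefore no evidence beyond the call. Groups can also separate without a call, as in Mrpl43 with PA (−0.04, adjusted p = 0.498 by edgeR). It held under each of the 21 alternative settings, from −0.58 to −0.75. Mrpl49 shares 551 bases with Syvn1, an ER-associated ubiquitin ligase gene on the opposite strand, whose mRNA rose with a log2 fold change of 0.53 ± 0.040 (SE, adjusted p = 4.08e-06 by edgeR). Since the sources used here do not say whether strand was used in counting, reads of the shared stretch from Mrpl49 and from Syvn1 cannot be told apart.

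Next came Mrpl14, Mrpl19, Mrps31 and Mrps22. Mrpl14, which lies at the face of the large subunit that meets the small one, read 35.2, 38.5 and 34.7 FPKM in BSA libraries, 26.9, 24.5 and 26.6 in PA libraries and 29.7, 27.6 and 27.6 in PA + C3G libraries, and its log2 fold change was −0.45 ± 0.070 (SE, adjusted p = 0.000472 by edgeR). Mrpl19 read 18.9, 18.4 and 19.2 FPKM in BSA libraries, 13.8, 15.0 and 13.2 in PA libraries and 14.2, 17.3 and 18.2 in PA + C3G libraries, with a log2 fold change of −0.40 ± 0.10 (SE, adjusted p = 0.00738 by edgeR). In both genes the PA libraries lay entirely below the BSA libraries, which was a condition for naming them by size. Mrps31, a small subunit protein of mitochondria only, read 16.3, 17.0 and 17.2 FPKM in BSA libraries, 11.7, 12.9 and 13.0 in PA libraries and 14.5, 13.5 and 12.7 in PA + C3G libraries and fell by 0.40 ± 0.078 on the log2 scale (SE, adjusted p = 0.00195 by edgeR). Mrps22, the least abundant of these mRNAs and also a small subunit protein of mitochondria only, read 9.57, 8.97 and 8.93 FPKM in BSA libraries, 6.05, 7.63 and 6.84 in PA libraries and 6.58, 6.96 and 6.30 in PA + C3G libraries, with a log2 fold change of −0.39 ± 0.11 (SE, adjusted p = 0.0147 by edgeR). That call was lost without PA replicate 1, the lowest library, where the value was −0.32 and the adjusted p 0.0523 by edgeR.

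Further genes, mostly chosen by role, were also lower. Mrps30, in spite of its name a protein of the large subunit, was among the most even of the genes and read 33.4, 33.6 and 33.4 FPKM in BSA libraries, 28.8, 28.9 and 27.5 in PA libraries and 28.6, 27.6 and 27.0 in PA + C3G libraries. Its log2 fold change of −0.21 ± 0.043 (SE, adjusted p = 0.00237 by edgeR) was small, yet the groups did not overlap. Mrps26 fell by 0.28 ± 0.045 on the log2 scale (SE, adjusted p = 0.000647 by edgeR), from 64.7 ± 2.51 to 52.4 ± 2.02 FPKM (SD, n = 3). Mrpl58, a peptidyl-tRNA hydrolase that frees stalled mitochondrial ribosomes, read 30.5, 34.6 and 34.7 FPKM in BSA libraries, 25.6, 26.9 and 25.7 in PA libraries and 32.1, 29.1 and 23.8 in PA + C3G libraries, and its log2 fold change was −0.32 ± 0.11 (SE, adjusted p = 0.0302 by edgeR). The Mrpl58 call was lost when BSA replicate 2 or 3 or PA replicate 1 or 3 was left out, with adjusted p between 0.0706 and 0.0848 by edgeR. Mrps36, the component of the 2-oxoglutarate dehydrogenase complex, went from 10.7 ± 1.14 to 8.80 ± 0.234 FPKM, a log2 fold change of −0.26 ± 0.081 (SE, adjusted p = 0.0236 by edgeR), and its call was lost without BSA replicate 3, PA replicate 1 or PA replicate 2, with adjusted p between 0.0544 and 0.0876.

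Of the 9 genes that rose, 5 stood out by size. Mrpl15, a large subunit protein with a bacterial counterpart (chromosome 5, 14609674 to 14620965, plus strand, in the authors' coordinates), read 23.2, 27.0 and 23.0 FPKM in BSA libraries, 35.1, 35.5 and 35.4 in PA libraries and 29.9, 28.3 and 27.0 in PA + C3G libraries. Its PA libraries agreed closely and lay above all others, and the log2 fold change over BSA was 0.56 ± 0.067 (SE, adjusted p = 8.18e-05 by edgeR). Mrpl45, which lies at the exit of the peptide tunnel and helps to hold the ribosome at the inner membrane (chromosome 10, 85257876 to 85269806, plus strand, in the authors' coordinates), read 14.8, 15.2 and 16.8 FPKM in BSA libraries, 18.2, 19.3 and 21.1 in PA libraries and 16.1, 15.0 and 16.9 in PA + C3G libraries, with a log2 fold change of 0.35 ± 0.074 (SE, adjusted p = 0.0032 by edgeR). Mrpl48, a large subunit protein of mitochondria only, read 28.9, 28.7 and 28.6 FPKM in BSA libraries, 32.8, 35.5 and 38.7 in PA libraries and 31.5, 28.6 and 28.6 in PA + C3G libraries, with a log2 fold change of 0.34 ± 0.066 (SE, adjusted p = 0.002 by edgeR). In all 3 genes no PA library fell within the range of the BSA libraries, which was a condition for naming them by size. Mrps27, a small subunit protein of mitochondria only with pentatricopeptide repeats, read 18.7, 20.0 and 18.1 FPKM in BSA libraries, 22.1, 22.8 and 24.9 in PA libraries and 24.0, 25.2 and 23.9 in PA + C3G libraries, and its log2 fold change was 0.32 ± 0.056 (SE, adjusted p = 0.000972 by edgeR).

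The largest rise, that of Mrpl36, rests in part on a library in which a second row for the same gene was at 0. Mrpl36, a very small protein of the large subunit with a bacterial counterpart, read 37.7, 39.9 and 39.0 FPKM in BSA libraries, 91.2, 49.1 and 51.6 in PA libraries and 50.1, 49.3 and 50.7 in PA + C3G libraries, with a log2 fold change of 0.74 ± 0.20 (SE, adjusted p = 0.0124 by edgeR). PA replicate 1 thus stood far above PA replicates 2 and 3, and in that library a further row of the table for a copy of the same gene, LOC100910528, was at 0, while it lay between 21.2 and 31.9 FPKM in the other libraries. Added together, both rows gave 58.9, 65.4 and 62.2 FPKM in BSA libraries, 91.2, 78.9 and 82.8 in PA libraries and 81.1, 78.5 and 82.6 in PA + C3G libraries. The mean of the sum was 62.2 ± 3.25 FPKM for BSA, 84.3 ± 6.27 for PA and 80.7 ± 2.07 for PA + C3G (SD, n = 3), so in FPKM both PA-treated groups lay above the control without overlap. In CPM the sum was 27.8 in PA replicate 1, below the 29.8, 34.3 and 32.0 of the BSA libraries. The size of the rise differs between measures. With the counts of both rows summed it was 0.23 and not called (adjusted p = 0.208 by edgeR), with the FPKM of both rows summed it was 0.43 by limma on log2(FPKM + 1) (adjusted p = 0.000279), and without PA replicate 1 the single row gave 0.39 (adjusted p = 0.0064 by edgeR). In PA + C3G vs BSA the single row was not called (0.42, adjusted p = 0.134 by edgeR), whereas the summed counts were (0.45, adjusted p = 0.0335 by edgeR).
Mrpl53, named after its values were seen, had its copy row at 0 in another library. It read 45.0, 44.9 and 42.2 FPKM in BSA libraries, 49.1, 44.2 and 53.1 in PA libraries and 43.7, 71.1 and 42.2 in PA + C3G libraries, and in PA + C3G replicate 2, its highest library, the copy row LOC103692169 was at 0 whereas it lay between 29.8 and 36.1 FPKM elsewhere. The summed rows of Mrpl53 gave 75.01 ± 2.66, 83.3 ± 6.44 and 73.0 ± 1.79 FPKM in the BSA, PA and PA + C3G groups. For PA + C3G vs PA, summing turned the log2 fold change of Mrpl53 from 0.14 to −0.26 with the counts (adjusted p = 0.122 by edgeR) and to −0.19 with the FPKM (adjusted p = 0.046 by limma), which is called. Mrpl1, the other gene with a copy row, had both rows above 8 FPKM in every library. Its single row was not called in PA + C3G vs BSA (−0.18, adjusted p = 0.176 by edgeR). Summing called Mrpl1 lower there, by 0.26 with the counts (adjusted p = 0.0372 by edgeR) and 0.31 with the FPKM (adjusted p = 0.0125 by limma). The reads of such copies cannot be told apart by gene, and the levels of Mrpl36, Mrpl53 and Mrpl1 are uncertain to that extent.

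**Figure D3:**
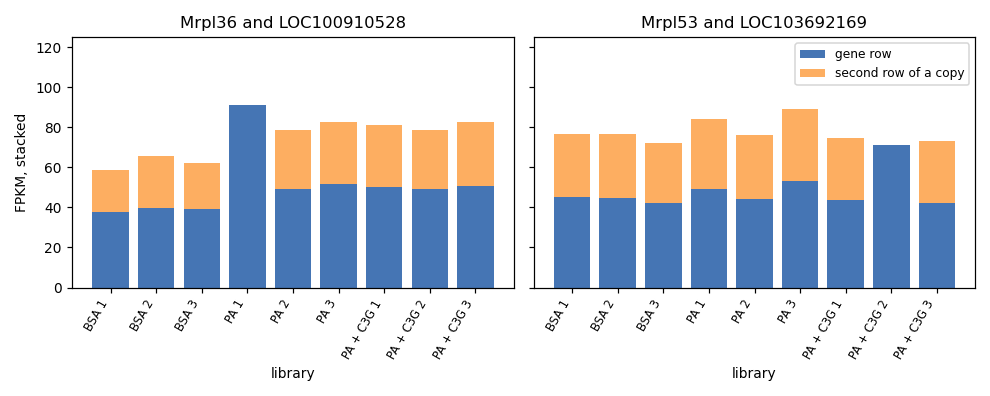
Stacked bars show FPKM in each library for the row of Mrpl36 (left) and of Mrpl53 (right) in blue with the row of its copy in orange. The orange part is at 0 in PA replicate 1 for Mrpl36 and in PA + C3G replicate 2 for Mrpl53, where the blue part rises to 91.2 and 71.1 FPKM.

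To ask which of these genes responded to C3G under palmitic acid, the PA + C3G group was compared with the PA group. Only 5 of the 74 genes were called (6.76%), Mrpl49 and Mrpl28 higher and Mrpl15, Mrpl45 and Mrpl48 lower, against 21.2% of all genes, of which 11.1% were higher and 10.2% lower. All 5 belong to the large subunit, and all 5 were among the 28 genes called in the PA group and moved back toward the BSA level. Both comparisons use the PA libraries, so that a library that is high or low in the PA group moves a gene in opposite directions in them. Of the 28 genes called with PA, 17.9% were called in the opposite direction with C3G, against 33.8% over all genes called with PA. The median log2 fold change was 0.03 against 0.00 over all genes, with a range from −0.32 to 0.53. Of the 29 genes with Mrps names, 0 were called in edgeR, although 4 had an unadjusted p under 0.05, and DESeq2 and limma each called 1 of them lower. Under TPM scaling 4 of the 29 were called lower, with 7 at an unadjusted p under 0.05, so the absence of calls among the Mrps names depends on the scaling. The DEG rule was met by 0 of 74 genes in edgeR, against 1.13% of all genes, with 15 of the 74 at an unadjusted p under 0.05. The balance of the calls and the sign of the median changed with the scaling. After division by the total FPKM of each library (TPM scaling), 1 gene was higher and 9 were lower, beside 775 and 2525 among all genes in place of 1436 and 1316, and the median turned to −0.06, against −0.09 over all genes. Without PA replicate 3, PA + C3G replicate 2 or PA + C3G replicate 3, 1 gene was lower in place of 3.

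Mrpl49 gave the largest response to C3G. It went from 26.1 ± 3.57 FPKM in the PA group to 36.6 ± 0.813 in the PA + C3G group (SD, n = 3), a log2 fold change of 0.53 ± 0.10 (SE, adjusted p = 0.00716 by edgeR), and the call held under each of the 21 settings tried. Its PA + C3G libraries still lay below every BSA library, but the difference from BSA was −0.16 and not called (adjusted p = 0.249 by edgeR). Syvn1, which overlaps it, had a log2 fold change of −0.16 ± 0.040 (SE, adjusted p = 0.0232 by edgeR) in the same comparison. Mrpl28, a large subunit protein with a bacterial counterpart (chromosome 10, 15495684 to 15498295, plus strand, in the authors' coordinates), read 41.1, 41.3 and 42.2 FPKM in BSA libraries, 31.2, 31.5 and 30.6 in PA libraries and 36.3, 34.6 and 38.4 in PA + C3G libraries. The PA libraries formed a narrow band below the other groups, and the log2 fold changes were −0.39 ± 0.059 (SE, adjusted p = 0.00037 by edgeR) with PA and 0.26 ± 0.059 (SE, adjusted p = 0.0123 by edgeR) with C3G. The latter call was lost under TPM scaling (0.17, adjusted p = 0.058 by edgeR).

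Mrpl15, Mrpl45 and Mrpl48 moved the other way, up with PA and down with C3G. Compared to the PA group, the log2 fold change in the PA + C3G group was −0.28 ± 0.066 (SE, adjusted p = 0.0161 by edgeR) for Mrpl15. It was −0.25 ± 0.074 (SE, adjusted p = 0.0387 by edgeR) for Mrpl45 and −0.23 ± 0.066 (SE, adjusted p = 0.0327 by edgeR) for Mrpl48. In each of the 3 genes all PA + C3G libraries lay below all PA libraries, which was also a condition for naming genes by size. These calls were close to the threshold. That of Mrpl15 was lost without PA + C3G replicate 3 (adjusted p = 0.0573 by edgeR), that of Mrpl45 without PA replicate 2 or 3 or PA + C3G replicate 1 or 2 (adjusted p between 0.0805 and 0.133), and that of Mrpl48 without PA replicate 2 or 3 or PA + C3G replicate 2 or 3 (between 0.0762 and 0.113). The Mrpl48 call was also lost with the replicate number as a block (−0.23, adjusted p = 0.0509 by edgeR) and with only the compared groups in the fit (adjusted p = 0.0644 by edgeR). In this comparison every library correlated best with its own number, although the labels do not say that the numbers mark pairs. Mrpl15 remained above BSA in the PA + C3G group, by 0.28 ± 0.067 (SE, adjusted p = 0.00895 by edgeR), although 1 BSA library overlapped the range.

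**Figure D4:**
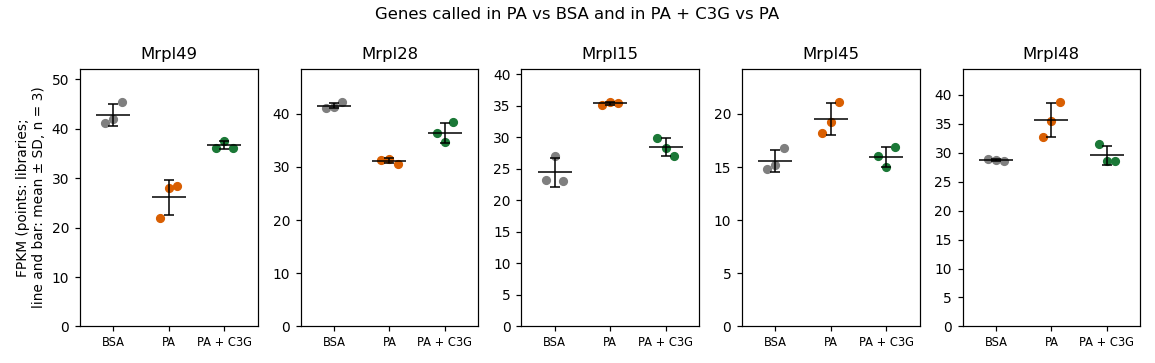
FPKM of the 5 genes called both in PA vs BSA and in PA + C3G vs PA, with a point for each library and the mean ± SD (n = 3) for each group, on axes that start at 0. Mrpl49 and Mrpl28 are lowest in the PA group, and Mrpl15, Mrpl45 and Mrpl48 are highest there.

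Compared to the BSA group, the PA + C3G group differed in 10 of the 74 genes (13.5%), 3 higher and 7 lower, against 36.9% of all genes, with 19% higher and 17.9% lower. The DEG rule was again met by 0 of 74 genes (4.63% of all genes), and 17 of the 74 had an unadjusted p under 0.05. The median was −0.01 against 0.01 over all genes. Of the 28 genes called with PA alone, 8 were also called here and 20 were not, and 44 of the 74 genes (59.5%) were called in none of the 3 comparisons, against 42.2% of all genes.

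Of the 10 genes off the BSA level in the PA + C3G group, 7 belong to the 32 found only in mitochondria and 3 to the 42 with a bacterial counterpart. TPM scaling called 2 genes higher and 15 lower here, beside 1891 and 3038 among all genes in place of 2462 and 2321, and limma on log2(FPKM + 1) called 2 higher and 19 lower, beside 1850 and 3091. Without PA + C3G replicate 2, 4 genes were lower in place of 7. Mrps27 stood 24.4 ± 0.71 against 18.9 ± 1.002 FPKM in the BSA group, a log2 fold change of 0.43 ± 0.056 (SE, adjusted p = 0.000277 by edgeR) that held under all 21 settings. The PA group stood at 23.3 ± 1.44 FPKM, and the difference of the PA + C3G group from it was 0.10 ± 0.056 (SE, adjusted p = 0.228 by edgeR). Mrps22 was lower by 0.41 ± 0.11 on the log2 scale (SE, adjusted p = 0.0178 by edgeR), and this call was lost without BSA replicate 1 or PA + C3G replicate 3 (adjusted p = 0.0518 and 0.0574 by edgeR). Mrps26 read 62.1, 67.1 and 64.8 FPKM in BSA libraries, 50.3, 52.6 and 54.4 in PA libraries and 52.7, 54.7 and 53.6 in PA + C3G libraries, with a log2 fold change of −0.21 ± 0.045 (SE, adjusted p = 0.00561 by edgeR) from BSA. Mrps30 differed from BSA by −0.21 ± 0.043 (SE, adjusted p = 0.00415 by edgeR) and from the PA group by 0.00. Mrpl14, with a bacterial counterpart, was lower by 0.29 ± 0.070 on the log2 scale (SE, adjusted p = 0.0093 by edgeR). For these genes the PA and the PA + C3G libraries lay on the same side of the BSA libraries. For those named by size, separation of PA + C3G from BSA was a condition of the naming.
Mrps31, Mrpl42 and Mrps18a were lower by 0.25, 0.26 and 0.20 on the log2 scale (adjusted p = 0.0312, 0.0406 and 0.0365 by edgeR), and each of these calls was lost in 4 or more of the fits that left out a library. For Mrps31 the adjusted p rose to between 0.0600 and 0.0907 without BSA replicate 2 or 3 or PA + C3G replicate 2 or 3. For Mrpl42 it rose to between 0.052 and 0.111 without replicate 2 or 3 of any group, and for Mrps18a to between 0.0555 and 0.110 without replicate 1 or 3 of BSA or 1 or 2 of PA + C3G. With the replicate block the calls of Mrps31 and Mrpl42 were lost too (adjusted p = 0.0533 and 0.0563 by edgeR). With no filter all 3 were lost, Mrps31 at 0.0523, Mrpl42 at 0.0602 and Mrps18a at 0.0530, and with only the compared groups Mrpl42 was lost (adjusted p = 0.0710 by edgeR). Mrpl52, named after its values were seen, was the remaining gene above BSA.

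**Figure D5:**
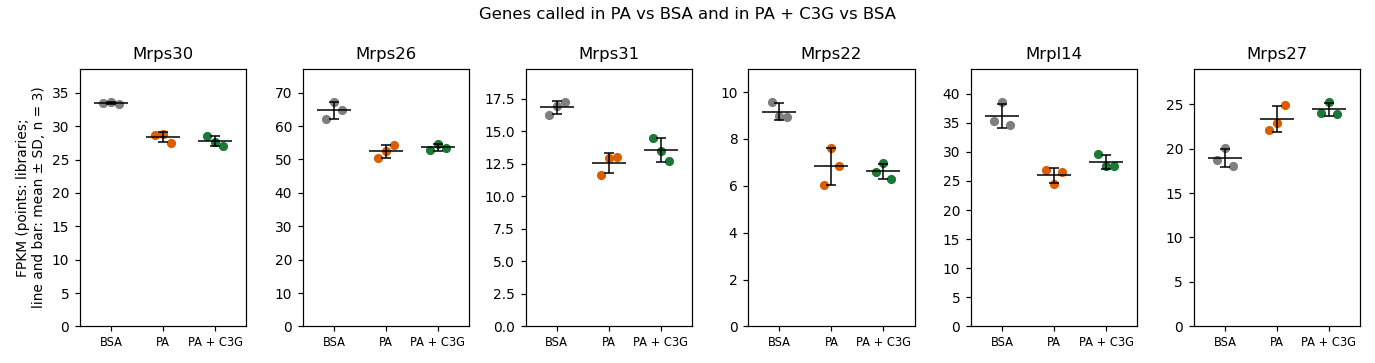
FPKM of 6 genes called both in PA vs BSA and in PA + C3G vs BSA, with a point for each library and the mean ± SD (n = 3) for each group, on axes that start at 0. In the 5 genes on the left the PA and PA + C3G libraries lie below the BSA libraries, and in Mrps27 they lie above.

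Other proteins picked for their role were not called by edgeR in PA vs BSA or in PA + C3G vs PA. Of those in this paragraph, only Mrps18a was called in PA + C3G vs BSA, where it was lower as given above. Mrpl12, a stalk protein of the large subunit that also binds the mitochondrial RNA polymerase, read 29.9, 31.9 and 32.8 FPKM in BSA libraries, 35.9, 30.6 and 33.1 in PA libraries and 31.4, 29.5 and 30.8 in PA + C3G libraries, and the groups overlapped, with a log2 fold change of 0.10 ± 0.062 (SE, adjusted p = 0.217 by edgeR) with PA. Mrps12, at the decoding center of the small subunit, read 24.7, 28.1 and 27.2 FPKM in BSA libraries, 22.1, 23.0 and 27.1 in PA libraries and 24.0, 22.3 and 22.1 in PA + C3G libraries, with −0.12 ± 0.10 (SE, adjusted p = 0.309 by edgeR). Mrpl44, which has a ribonuclease III fold, stayed between 9.70 and 12.9 FPKM in all libraries. The 3 paralogs of bacterial S18 differed in level: Mrps18a averaged 48.0 ± 2.52 FPKM in the BSA group, Mrps18b 15.6 ± 3.58 and Mrps18c 18.5 ± 0.755. With PA, Mrps18a differed by −0.16 ± 0.065 (SE, adjusted p = 0.0592 by edgeR), just outside the threshold and inside it in 7 of 21 settings, while Mrps18b and Mrps18c differed by 0.25 and −0.16 with overlapping groups.

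The genes around the mitochondrial ribosome were read from lists put together beside the name rule. Of 5 further proteins of the ribosome under other names (Dap3, Chchd1, Ptcd3, Aurkaip1 and Gadd45gip1), 0 were called in any of the 3 comparisons in edgeR or DESeq2, while limma called 1 lower in PA + C3G vs BSA and TPM scaling called 1 higher in PA vs BSA. At an unadjusted p under 0.05 in edgeR, 1 passed in PA vs BSA and 0 in the others. The row mrpl9, written in lower case and so outside the name rule, went from 33.9 ± 2.75 FPKM for BSA to 44.2 ± 2.80 for PA and 31.6 ± 2.16 for PA + C3G, with log2 fold changes of 0.41 ± 0.075 (SE, adjusted p = 0.00131 by edgeR) and −0.45 ± 0.075 (SE, adjusted p = 0.00326 by edgeR). With the 3 lower-case rows mrpl9, mrpl11 and mrpl24 counted, 11 genes were higher and 20 lower with PA, and 2 higher and 4 lower with C3G.

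The counts that follow stand beside 25.8% of all genes higher and 25.2% lower with PA, and 11.1% higher and 10.2% lower with C3G compared to PA. Of 27 assembly factors of the mitochondrial ribosome, 9 were higher and 1 was lower with PA, and 1 was higher and 3 were lower with C3G compared to PA. Noa1, a GTPase, rose with PA, with a log2 fold change of 0.37 ± 0.068 (SE, adjusted p = 0.00139 by edgeR), and differed by −0.43 ± 0.068 (SE, adjusted p = 0.0025 by edgeR) with C3G. Gtpbp6 rose with PA by 0.57 ± 0.074 (SE, adjusted p = 0.000133 by edgeR). It was not called with C3G compared to PA (−0.11, adjusted p = 0.329 by edgeR) and stayed above BSA there (0.46, adjusted p = 0.000891 by edgeR). Of 16 translation factors, 5 were higher and 1 was lower with PA, and 3 were lower with C3G. Tufm, the elongation factor that brings aminoacyl-tRNA to the ribosome, read 35.6, 36.7 and 37.8 FPKM in BSA libraries, 42.7, 44.1 and 45.6 in PA libraries and 35.3, 35.4 and 32.7 in PA + C3G libraries, with 0.29 ± 0.048 (SE, adjusted p = 0.000677 by edgeR) and then −0.32 ± 0.048 (SE, adjusted p = 0.00196 by edgeR). Guf1 fell with PA by 0.44 ± 0.077 on the log2 scale (SE, adjusted p = 0.000984 by edgeR). With C3G it was not called compared to PA (0.13, adjusted p = 0.284 by edgeR) and stayed below BSA (−0.32, adjusted p = 0.0101 by edgeR). Among 21 rows of mitochondrial aminoacyl-tRNA synthetases, 4 were higher and 2 lower with PA, and 2 were lower with C3G. Of 12 genes of mitochondrial DNA transcription and upkeep, 3 were higher and 4 lower with PA and 0 were called with C3G by edgeR, DESeq2 or limma (3 at an unadjusted p under 0.05 by edgeR), but TPM scaling called 3 of them lower.

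The 13 protein-coding genes of mitochondrial DNA, whose mRNAs the mitochondrial ribosome translates, were also read, a list chosen after their values were seen. With PA 6 of them were lower and 0 higher, against 25.2% and 25.8% of all genes, with a median log2 fold change of −0.16, against −0.07 for the ribosomal protein genes. With C3G compared to PA, 4 were higher and 0 lower, against 11.1% and 10.2% of all genes, and all 13 values were above 0, with a median of 0.17 against 0.03. Under TPM scaling 9 of the 13 were above 0, with a median of 0.09 against −0.06. These counts differ between tools, with 1 called higher by limma, 1 under TPM scaling and 6 by DESeq2. Their sum lay between 75989 and 87512 FPKM for BSA, 71185 and 78662 for PA, and 75707 and 81277 for PA + C3G, and these ranges overlap.

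Of 10 nuclear regulators of mitochondrial genes, 3 were higher and 3 lower with PA, against 25.8% and 25.2% of all genes, and 4 were lower with C3G, against 10.2%. Ppargc1a, a coactivator of mitochondrial biogenesis, read 1.42, 0.791 and 1.01 FPKM in BSA libraries, 5.21, 3.46 and 4.53 in PA libraries and 2.37, 2.08 and 2.22 in PA + C3G libraries, with a log2 fold change of 2.06 ± 0.22 (SE, adjusted p = 4.54e-05 by edgeR) and then −0.94 ± 0.22 (SE, adjusted p = 0.014 by edgeR). Gabpa, which binds ETS sites of the type shown above, differed by −0.34 ± 0.044 (SE, adjusted p = 0.00013 by edgeR) with PA. The 8 ribosomal protein genes with that motif included 3 that rose and 1 that fell with PA, beside the same 25.8% and 25.2% of all genes.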

How the data were processed

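Polyadenylated RNA was made into 9 strand-marked libraries, 3 for each group, and read from both ends. The authors deposited estimated counts per gene, whole numbers without normalization, and FPKM, which the authors had scaled to gene length and library size. The submitters' processing notes name cutadapt 1.9, HISAT2 2.0.4, StringTie 1.3.4d, DESeq2 and edgeR, and the genome build and the use of strand in counting are not given in the sources used here. Counts of 4 were more frequent (4044 values) than counts of 3 (2040) or 5 (1276), so that sampling error may exceed what the totals of 45559993 to 66730721 imply, and dividing by 4 was an alternative.

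Genes with a mean of at least 1 FPKM were tested with edgeR 4.0.16 in R 4.3.3 (TMM, quasi-likelihood test on all 9 libraries, Benjamini-Hochberg adjustment over all genes tested). The procedure was tested on counts simulated with the spread that edgeR had fitted here. That test cannot show whether the fitted spread holds for these data. The members and gene lists were chosen with earlier results of these data known. Named were the 5 largest rises and falls per comparison among called genes without overlapping groups, the 3 highest and 3 lowest genes, those called in both of the first 2 comparisons, 10 genes chosen by role, and up to 3 genes per further list. Alternatives were DESeq2 1.42.0, median-ratio and TPM scaling, no filter, a mean of at least 5 FPKM, only the compared groups, the replicate number as a block, limma 3.58.1 on log2(FPKM + 1) and log2(FPKM + 0.1), and leaving out each library. Chosen after seeing the data were summing copy rows (with edgeR or limma), adding mrpl9, mrpl11 and mrpl24, and dropping Mrpl36, Mrpl53 and Mrps24. Promoter windows came from RefSeq (GRCr8).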

Additional observations from a re-analysis of the deposited data

How the results depend on the processing

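For PA vs BSA, the counts of genes called higher and lower stayed within 1.5 times those of the test used under every alternative, with 6 to 12 higher and 15 to 22 lower, and the comparisons with C3G moved more. In PA + C3G vs PA, against 2 higher, 3 lower and a median of 0.03, DESeq2 called 4 higher, TPM scaling 1 higher and 9 lower (median −0.056), limma 5 lower at either pseudocount (medians −0.0029 with 1 and −0.0030 with 0.1), and limma on summed copy rows 6 lower (−0.0061). Leaving out a library gave 1 to 4 lower. In PA + C3G vs BSA, against 7 lower and a median of −0.01, TPM scaling called 15 lower (−0.070), no filter 4, limma 19 and 18 (−0.066 and −0.068 for pseudocounts of 1 and 0.1) and limma on summed copy rows 19 (−0.066), and leaving out a library gave 4 to 7. TPM scaling and limma on log2(FPKM + 1) also moved the median of all genes, to −0.090 and −0.034 in PA + C3G vs PA and to −0.053 and −0.049 in PA + C3G vs BSA, and the median of these genes minus that of all genes stayed at 0.03 and at −0.02 under both. The cause of the other changes was not tested. Of 1638 values of single named genes, 1564 kept their side of the threshold, 43 were no longer called, 31 were newly called and 0 called values reversed, while 42 uncalled values changed sign. With the replicate block, 9 were higher and 20 lower in PA vs BSA, 2 and 2 in PA + C3G vs PA, and 3 and 5 in PA + C3G vs BSA. The numbers do not mark pairs by the labels, and correlations of same-numbered libraries lay between −0.08 and 0.13, with every library best matched to its own number in PA + C3G vs PA only. The median standard error was 0.08 on the log2 scale, and differences well above it could also go uncalled with 3 libraries per group. In PA vs BSA, for example, Mrps18a was not called at −0.16 ± 0.065 (SE, adjusted p = 0.0592 by edgeR).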
